A study of Mus musculus with 2 samples.

Results

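MicroRNA genes encode short RNAs that lower the output of the mRNAs they pair with, and the stretches of open chromatin beside them are the subject here. The tissue was the embryonic facial prominence, the bulge of mesenchyme and covering ectoderm that forms the face and jaws, from mouse strain B6NCrl at embryonic day 14.5, with male and female embryos pooled. Open chromatin was mapped by DNase-seq, in which the enzyme DNase I cuts DNA that is not wrapped in nucleosomes. The series holds 1 group of 2 biological replicates, which are separate biosamples under 1 donor record, with no treatment, mutant or control tissue, so no comparison between groups was possible. How many embryos were pooled in each biosample is not given in the sources used here.

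A linked site was a place where a deposited peak of replicate 1 overlapped a deposited peak of replicate 2 by at least 1 bp, with overlapping peaks merged, and where the merged site lay within 1 kb of an annotated miRNA gene and over 1 kb from every start site (TSS) of a protein-coding gene. Only chromosomes 1 to 19 were used, with GENCODE M21 genes on mm10. In all, 353 linked sites were found, made of 363 peaks in replicate 1 and 365 in replicate 2. They were 0.255% of the 138189 autosomal shared sites over 1 kb from coding TSSs, out of 173501 autosomal shared sites. The autosomal lists held 296849 peaks in replicate 1 and 212971 in replicate 2, and the longer list reaches weaker sites, so a peak missing from replicate 2 is not shown to be closed chromatin. The authors' score of a peak is a whole number of unstated normalization, with medians of 50 and 37 in the complete lists of replicates 1 and 2, and it was read only as a value or as a percentile within its own list. In whole tissue, an open site in few cells and a weakly open site in many cells cannot be told apart.

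A miRNA is cut from a hairpin in a longer primary transcript, first in the nucleus by Drosha and then in the cytoplasm by Dicer. The mature strand, loaded into an Argonaute protein, finds targets mainly through its seed, bases 2 to 8 from its 5′ end, and miRNAs with one seed form a family. Some hairpins lie in introns of coding genes and can share the promoter of that host gene, others lie in long non-coding RNAs or stand alone with a promoter of their own, and neighbouring hairpins are often cut from 1 transcript. An open site beside a hairpin can therefore be a promoter, an enhancer or another regulatory element, and the peaks do not say which, nor whether the miRNA was made.

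Mature sequences from RefSeq (GRCm38.p6) are given for the miRNAs on which the results turn, with the seed in capitals. The first set comes from genes beside some of the highest scoring linked sites, with miR-199b and let-7e added because they share a seed with them, and miR-199a is encoded at both Mir199a-1 and Mir199a-2.
miR-210-3p: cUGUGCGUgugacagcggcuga
miR-199a-3p: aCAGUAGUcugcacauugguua
miR-199b-3p: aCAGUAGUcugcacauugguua
miR-22-3p: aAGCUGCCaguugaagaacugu
let-7i-5p: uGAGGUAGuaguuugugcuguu
let-7e-5p: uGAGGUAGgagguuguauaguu
miR-125b-5p: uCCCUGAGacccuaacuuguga
The second set is of miRNAs known from epithelium, skeletal muscle and neurons.
miR-203-3p: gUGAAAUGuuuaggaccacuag
miR-205-5p: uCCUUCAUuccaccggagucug
miR-200c-3p: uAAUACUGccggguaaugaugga
miR-141-3p: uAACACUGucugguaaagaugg
miR-206-3p: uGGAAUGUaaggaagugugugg
miR-132-3p: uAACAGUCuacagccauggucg
miR-212-3p: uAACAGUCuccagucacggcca
The third set is of mouse miR-344 miRNAs with 1 seed, shown because their genes had linked sites close to the hairpin.
miR-344-5p: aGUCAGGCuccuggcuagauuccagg
miR-344b-5p: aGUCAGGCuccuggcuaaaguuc
miR-344c-5p: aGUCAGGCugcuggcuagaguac
miR-344g-5p: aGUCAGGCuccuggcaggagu
Of the 296 miRNA genes with a linked site, 187 had a mature sequence among the RefSeq sequences used, with 296 mature sequences and 270 seeds. More than 1 gene had the same seed for 19 of these seeds. Sequences from 1 autosome that has linked sites were not among those used. The counts of genes, sequences, seeds and shared seeds thus leave its genes out and may be too low. GUCAGGC was shared by Mir344, Mir344-2, Mir344b, Mir344c and Mir344g, CAGUAGU by Mir199a-1, Mir199a-2 and Mir199b, GAGGUAG by Mirlet7e, Mirlet7i and Mir1961, and AACAGUC by Mir132 and Mir212.

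Peak sequences are shown for 6 linked sites, 1 peak of 150 bp each on the plus strand of mm10, read from the GRCm38.p6 assembly. The capitals mark letters matched on either strand, namely the GC box GGGCGG, the ETS core CCGGAA, the TEAD core GGAATG, the E-box CAGCTG, the ZEB-type E-box CACCTG and the TATA-like string ATAAAAGG. The last pair of strings was chosen after printed sequences had been seen. In the Mir199a-2 peak the capitals instead mark the start of the annotated Dnm3os exon. The peaks of Mir200c and Mir205 also touch exons of non-coding genes, Gm15884 and 4631405K08Rik, and none of the 6 overlapped an exon of a coding gene.
Mir210, chr7:141221816-141221965: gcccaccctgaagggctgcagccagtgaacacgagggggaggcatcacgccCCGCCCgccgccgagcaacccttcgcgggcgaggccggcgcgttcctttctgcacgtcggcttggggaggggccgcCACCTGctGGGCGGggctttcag
Mir199a-2, chr1:162217516-162217665: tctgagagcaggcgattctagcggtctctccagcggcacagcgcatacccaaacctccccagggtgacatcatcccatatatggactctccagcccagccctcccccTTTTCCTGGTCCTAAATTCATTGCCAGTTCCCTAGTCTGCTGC
Mir203, chr12:112130676-112130825: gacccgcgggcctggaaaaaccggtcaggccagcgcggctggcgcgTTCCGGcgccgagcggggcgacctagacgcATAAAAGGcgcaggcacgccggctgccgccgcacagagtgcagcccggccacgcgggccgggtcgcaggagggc
Mir205, chr1:193508356-193508505: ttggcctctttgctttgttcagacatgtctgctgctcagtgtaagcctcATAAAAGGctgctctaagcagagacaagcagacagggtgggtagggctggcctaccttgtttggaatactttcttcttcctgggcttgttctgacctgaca
Mir200c, chr6:124718816-124718965: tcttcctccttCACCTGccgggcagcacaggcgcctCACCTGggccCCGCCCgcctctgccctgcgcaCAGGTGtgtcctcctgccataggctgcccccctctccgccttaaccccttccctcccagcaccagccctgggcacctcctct
Mir206, chr1:20678116-20678265: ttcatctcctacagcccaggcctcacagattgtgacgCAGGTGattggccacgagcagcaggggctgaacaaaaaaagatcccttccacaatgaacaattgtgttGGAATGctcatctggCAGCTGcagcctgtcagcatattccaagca

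Of 2054 autosomal miRNA genes, 296 had a linked site, or 14.4% (exact Clopper-Pearson 95% interval 12.9 to 16.0, counting error only, as for every interval given). Windows of the same kind placed every 10 kb along the autosomes held one in 11.0% of 240573 cases, and other short non-coding RNA genes in 11.2% of 3647. Among the 1889 miRNA genes whose window kept at least 150 bp outside 1 kb of coding TSSs the share was 15.6%, against 11.1% of the windows and 11.5% of the short non-coding RNA genes so limited. Long non-coding RNA genes, which are far longer, had a shared site within 1 kb of their body in 57.3% of cases (57.5% of those with room for one).

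The share differed with the name of the gene. Genes whose symbol begins with Mir, which marks registered miRNAs, had a linked site in 204 of 1084 cases (18.8%, interval 16.5 to 21.3). The other symbols, mostly predicted hairpins of the Gm series, had one in 92 of 970 cases (9.48%, interval 7.71 to 11.5). With windows that had no room left out, the shares were 20.7% and 10.1%. Per 100 kb of eligible sequence there were 14.7 gene and site pairs around Mir symbols, 6.31 around other symbols, 6.45 in evenly spaced windows and 7.66 around other short non-coding RNA genes. The other symbols were thus near the level of the evenly spaced windows and the Mir symbols above it.

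Peaks of single replicates were counted only in the part of the window beyond 1 kb of coding TSSs. Of the 1758 miRNA genes without a linked site, 1378 had no peak of either replicate there. Here and below, a gene with no peak, or with a peak in 1 replicate alone, is described for that part only. An unshared peak nearer to a coding TSS would not be counted. In 112 genes only replicate 1 had a peak and in 23 only replicate 2, and the best peaks of these genes had median scores of 39 and 19. At 172 genes the only shared site in the window lay within 1 kb of a coding TSS, and at 71 less than 150 bp of the window lay beyond that limit. At 2 genes both replicates had a peak but the peaks did not overlap. Most of the 296 genes had 1 linked site (233 genes), 47 had 2, 10 had 3 and 6 had 4.

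**Figure D1:**
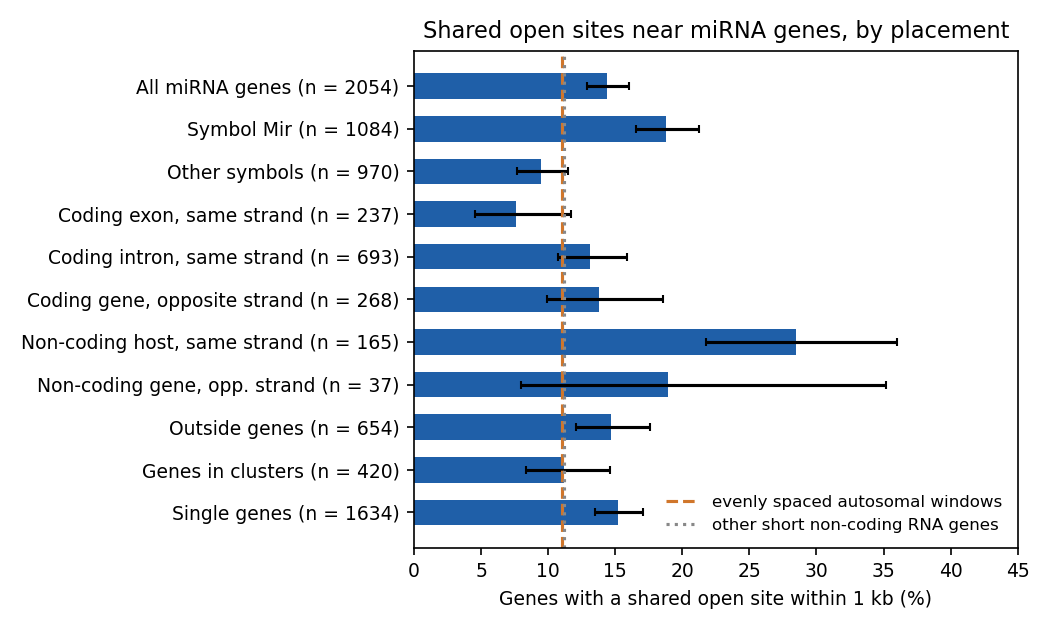
Percentage of autosomal miRNA genes with a linked shared site (bars) and exact 95% intervals (lines), by symbol, placement in the annotation and clustering, with n genes beside each name and the levels of evenly spaced windows (dashed) and other short non-coding RNA genes (dotted). Hairpins in non-coding host genes stand highest at 28.5%, and hairpins in coding exons lowest at 7.59%.

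The linked sites had higher median scores than other distal sites. In replicate 1 the median was 66, with the middle of the sites between 52 and 87, against 60 (47 to 77) for the other 137836 shared sites over 1 kb from coding TSSs. In replicate 2 it was 45 (33 to 64) against 38 (28 to 53), so the ranges overlapped widely in both. Every linked site lay in a hotspot, the authors' wider call of enriched cutting, in both replicates, which was also true of the other distal sites. The hotspot was at the ceiling of the deposited −log10 q-value, 100, for 214 linked sites in replicate 1 and 151 in replicate 2. Scores ranked alike in the replicates, with a Spearman rho of 0.844 over the 353 linked sites and 0.789 over the other distal sites, given as descriptions since sites of one library share its depth.

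**Figure D2:**
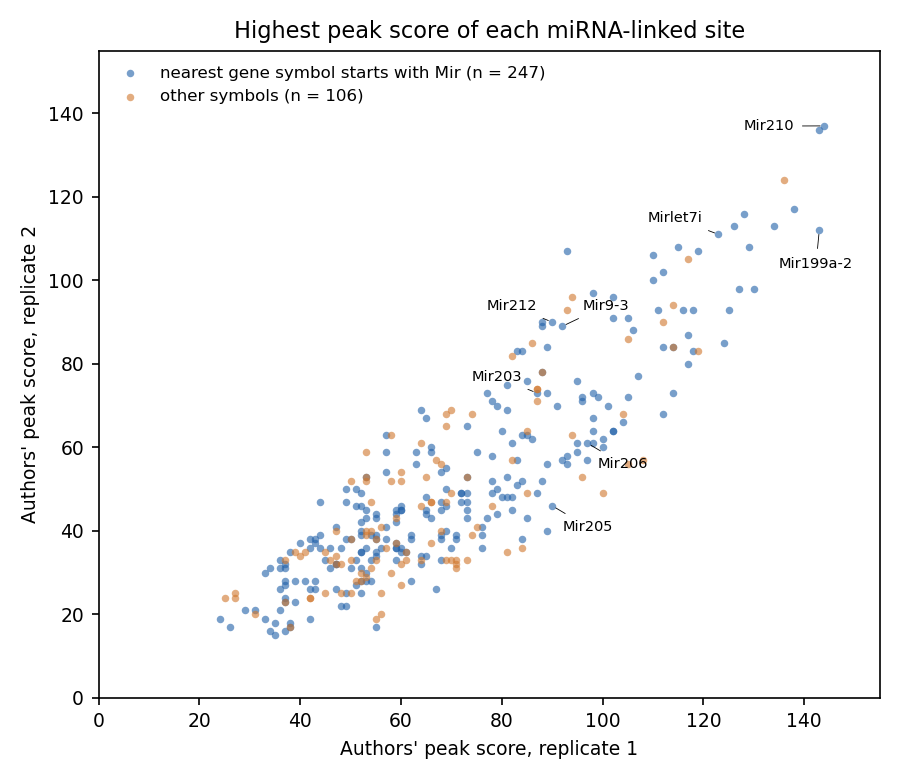
Highest authors' peak score of each linked site in replicate 1 (x axis) and replicate 2 (y axis), 1 point per site, coloured by whether the nearest miRNA gene has a Mir symbol (n = 247) or another (n = 106). Scores rise together, and the site of Mir210 is at the upper right with 144 and 137.

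The site of highest mean rank lay upstream of Mir210, whose miRNA is a classical target of the hypoxia response. Its score was 144 in replicate 1 and 137 in replicate 2, in the top 1% of each list (percentiles 99.7 and 99.8). The centre of the peak was 398 bp upstream of the hairpin's 5′ end and its edge 4178 bp from the nearest coding TSS, outside any gene. Next came a site 895 bp upstream of Mir7655 in an intron of Mllt10, a chromatin regulator, with 143 and 136. It lay 1639 bp from the nearest coding TSS and within 1 kb of the start of a long non-coding RNA, 1810059C17Rik. A site beside the predicted pair Gm47299 and Gm47305 followed, with 136 and 124.

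The Mir199a-2 site overlapped the start of Dnm3os, the long non-coding RNA that carries Mir199a-2 and Mir214 and runs antisense to Dnm3. It scored 143 and 112 and its centre was 233 bp upstream of the hairpin. The other copy, Mir199a-1, lies in Dnm2 on the opposite strand and had a site 447 bp upstream with 130 and 98. The last gene with this seed, Mir199b in Dnm1, had a weaker site of 45 and 33, downstream of the hairpin. So all 3 genes of the CAGUAGU seed had a linked site, each in a dynamin gene, and the score at Mir199b was the lowest of the 3 in both replicates.

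Srf, the gene of serum response factor, a regulator of muscle and cytoskeletal genes, held 2 of the 15 highest sites. They lay downstream of its intronic hairpin Mir6976, with scores of 138 and 117 for one and 134 and 113 for the other, and at 1083 and 1423 bp from the nearest coding TSS they were near that limit. Mir22, in an annotated exon of Tlcd2, had a site 605 bp upstream with 126 and 113. Mirlet7i had 3 sites, of which the upstream pair scored 123 and 111, and 115 and 108, and the downstream one 72 and 49.

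Mir8111 had a site of 128 and 116, and Mir6516, beside the start of its host Snhg20, one of 129 and 108. Mir125b-1 was beside the start of its non-coding host 3110039I08Rik, with 119 and 107. A site of 127 and 98 lay in Rtl1, upstream of Mir3071 and downstream of Mir136, which are annotated over the same bases on opposite strands. Rtl1 is the imprinted retrotransposon-like gene of the placenta and muscle. Gm25262 closed the 15 with 117 and 105. Of the 15 sites 13 were upstream of their hairpin, and scores in this set ran from 115 to 144 in replicate 1 and from 98 to 137 in replicate 2.

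Upstream sites were also the most frequent in the whole set. Counted on the strand of the nearest miRNA gene, 170 linked sites were upstream (48.2%), 47 over the hairpin (13.3%) and 136 downstream (38.5%). Beside Mir symbols 113 of 247 were upstream (45.7%, interval 39.4 to 52.2) and 96 downstream (38.9%, interval 32.8 to 45.3), and these intervals overlap. Beside other symbols 57 of 106 were upstream (53.8%, interval 43.8 to 63.5) and 40 downstream (37.7%, interval 28.5 to 47.7). The tilt was thus not particular to Mir symbols. Of the 88 sites with the highest mean rank 48 were upstream, and of the 89 with the lowest 40 were. Around Mir symbols the density of shared sites was 17.9 per 100 kb in the 500 bp before the 5′ end. It was 14.2 in the 500 bp before that and 13.5 in the 500 bp after the 5′ end. The mean over the flanks from 2 to 5 kb on both sides was 10.4, with single bins from 8.04 to 13.4. Around other symbols the bin before the 5′ end held 7.53 per 100 kb and the bin after it 2.83, from 12 sites, against 6.32 over the same flanks.

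**Figure D3:**
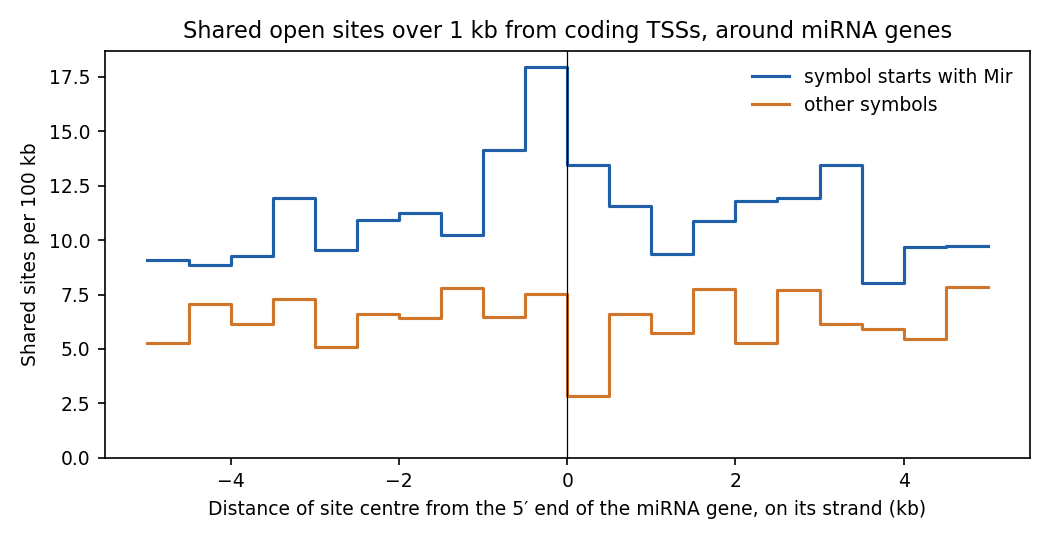
Shared sites over 1 kb from coding TSSs per 100 kb of eligible sequence (y axis), in bins of 500 bp of the distance of the site centre from the 5′ end of the miRNA gene on its strand (x axis, kb), for genes with Mir symbols and with other symbols. Mir symbols reach 17.9 just before the 5′ end, and other symbols have their lowest bin, 2.83, just after it.

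Hairpins in coding introns on the same strand numbered 693, and 91 of them had a linked site (13.1%, interval 10.7 to 15.9). Evenly spaced windows in coding introns had one in 12.5% of cases (12.6% of those with room), and windows outside coding genes in 10.1%. Host introns as a class were thus near their background, but the class includes the Sfmbt2 cluster, whose 119 genes had no linked site. This 1 locus lowers the share, here and in the split by symbol, and the shares without it were not computed. Among introns with room for a site, hairpins with Mir symbols had one in 78 of 451 cases (17.3%, interval 13.9 to 21.1) and those with other symbols in 13 of 209 (6.22%, interval 3.35 to 10.4). The 91 hairpins lay in 90 host genes.

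The host promoters themselves were mostly open. A shared peak within 1 kb of a host TSS was present for 654 of the 693 intronic hairpins (94.4%). It was present for 88 of the 91 with a linked site (96.7%) and for 566 of the 602 without (94.0%). Among the 20807 autosomal coding genes the share was 72.6%. The hairpin shares count a host once for each of its hairpins, many times for Sfmbt2, and the 693 lay in 542 host genes. They are thus not in the same unit as the share of coding genes, and the share of distinct hosts was not computed. Counted by hairpin, most intronic hairpins sat in genes with open promoters whether or not a site lay beside the hairpin.

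Among the host-intron sites, which were picked here for their rank after Mir7655 and Mir6976, that of Mir1191b in Nfic, a nuclear factor I gene, scored 112 and 102. An intron of Foxp1, a forkhead repressor gene, held a site of 119 and 83 beside Gm22328, over 35 kb from the nearest coding TSS (35512 bp). Mir3109 in Anxa2 had one of 106 and 88, and Mir5618 in Tmem123 one of 117 and 80. Mir6391 in Abcc4 scored 93 and 107, which made it one of the sites that ranked higher in replicate 2.

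Hairpins in non-coding host genes on the same strand had a linked site most often, in 47 of 165 cases (28.5%, interval 21.7 to 36.0). For hairpins outside genes it was 96 of 654 (14.7%), for those antisense to a coding gene 37 of 268 (13.8%), for those in coding exons 18 of 237 (7.59%) and for those antisense to a non-coding gene 7 of 37 (18.9%). The share in coding exons is tied to the rule, since many of these windows fall within 1 kb of a coding TSS, and it was 11.6% of the 146 with room. The share in non-coding hosts is tied to the rule too, since sites at the starts of non-coding hosts are kept. Of those hairpins with room, 32.5% of 123 with Mir symbols had a linked site and 19.4% of 36 with other symbols. No background of windows inside non-coding genes was counted.

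Linked sites were chosen beside hairpins, 165 of which lie in non-coding hosts on the same strand. Starts of long non-coding RNAs were more frequent beside linked sites than beside other distal sites, and the part of this choice was not tested. Of the 353 linked sites 45 lay within 1 kb of such a start (12.7%, interval 9.45 to 16.7), compared with 3851 of the other 137836 distal sites (2.79%), and 32 long non-coding genes were involved. The share was 38 of 247 sites next to Mir symbols (15.4%) and 7 of 106 next to other symbols (6.60%). Besides Dnm3os and Snhg20, these starts included those of Mir17hg, of 1700016P03Rik, which carries Mir212 and Mir132, of Gm15884, which carries Mir200c and Mir141, and of Gm27032, which carries Mir124a-3.

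Clusters were defined as chains of miRNA genes on 1 strand with gaps of at most 10 kb. Of 110 such clusters 27 had a linked site (24.5%, interval 16.8 to 33.7), and in 14 of them every gene had one. Counted by gene, 47 of 420 clustered genes had a site (11.2%, interval 8.34 to 14.6) and 249 of 1634 single genes (15.2%, interval 13.5 to 17.1). Among them was 1 cluster of 119 genes in an intron of Sfmbt2 on chromosome 2, repeat-like copies expressed mainly in placenta, which held no peak of either replicate over 53.0 kb. Without it, 47 of 301 clustered genes had a site (15.6%, interval 11.7 to 20.2). How uniquely reads map to these copies is not given in the sources used here, and its part in the absence of peaks was not tested.

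The cluster with most linked sites was that of Mir199a-2 and Mir214, with 5 sites over a span of 5664 bp. Besides the one at the Dnm3os start, Mir199a-2 had sites scoring 124 and 85, 84 and 63, and 43 and 38, and Mir214 had 1 of 43 and 37. Both miRNAs are known from skeletal mesenchyme. Only 3 replicate 2 peaks by themselves lay within the limits at Mir199a-2, so not all 4 of its sites had one.

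Mir212 and Mir132, which share the seed AACAGUC and are known to respond to neuronal activity, had 3 sites. One lay 15 bp from the start of 1700016P03Rik and scored 57 and 54, and those on either side of Mir212 scored 84 and 83, and 90 and 90. These scores were nearly equal in the 2 replicates, although the median of the replicate 2 list is lower.

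Mir193b and Mir365-1, a pair known from brown fat and myogenic cells, also had 3 sites. The pair upstream of Mir193b scored 63 and 56, and 51 and 27. The single one downstream of Mir365-1, with 93 and 56, was the strongest in replicate 1 and tied with the first of these in replicate 2.

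The imprinted Dlk1-Dio3 region of chromosome 12 carries the longest array of hairpins after the Sfmbt2 cluster. Its cluster from Mir379 to Mir3072 holds 39 genes over 38.9 kb and had 2 linked sites, near Mir667 and Mir3072. Its other large cluster, from Mir770 to Mir136, holds 14 genes and also had 2, both downstream of Mir136 in Rtl1. So in each of these long clusters 2 genes had a linked site.

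Of 7 clusters with 5 or more genes, 3 had a linked site, and besides those of chromosome 12 it was Mir17 to Mir92-1 in Mir17hg, the growth-promoting oncomir cluster. Its site overlapped the Mir17hg start, scored 46 and 36, and was within 1 kb of Mir17 and Mir18 only. The clusters of Mir290a to Mir295 and of Mir302 with Mir367, both markers of pluripotent cells, had no peak in either replicate.

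The Mir344 genes of chromosome 7 were not one of the named sets and were picked after their values were seen. Of 13 genes with a Mir344 symbol, 7 had a linked site, and in 6 the site overlapped the hairpin itself. Scores were 33 and 19 at Mir344b, 37 and 28 at Mir344c, 43 and 26 at Mir344, and 53 and 30 at Mir344f. They were 79 and 44 at Mir344-2, 76 and 36 at Mir344g, and 78 and 49 at Mir344i. The site centres were within 120 bp of the 5′ end at all 7, whereas 47 of all 353 linked sites lay over a hairpin. Mir344d-1, Mir344d-3, Mir344e, Mir344h-1 and Mir344h-2 had no peak and Mir344d-2 only 1 of 25 in replicate 1. The 5 of these 7 genes that share the seed GUCAGGC have like mature sequences, so their sites may not be independent of each other, and the part of read mapping between such genes was not tested.

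Lists of miRNAs known from tissues, cell states, gene clusters and families were used to describe the openness beside them. Some lists, such as that for liver, are not of tissues of the face. Of 132 listed symbols 124 matched an autosomal miRNA gene and 31 of these had a linked site, beside 18.8% of all genes with Mir symbols. An open site is not a measure of expression, and the list counts carry no test.

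**Figure D4:**
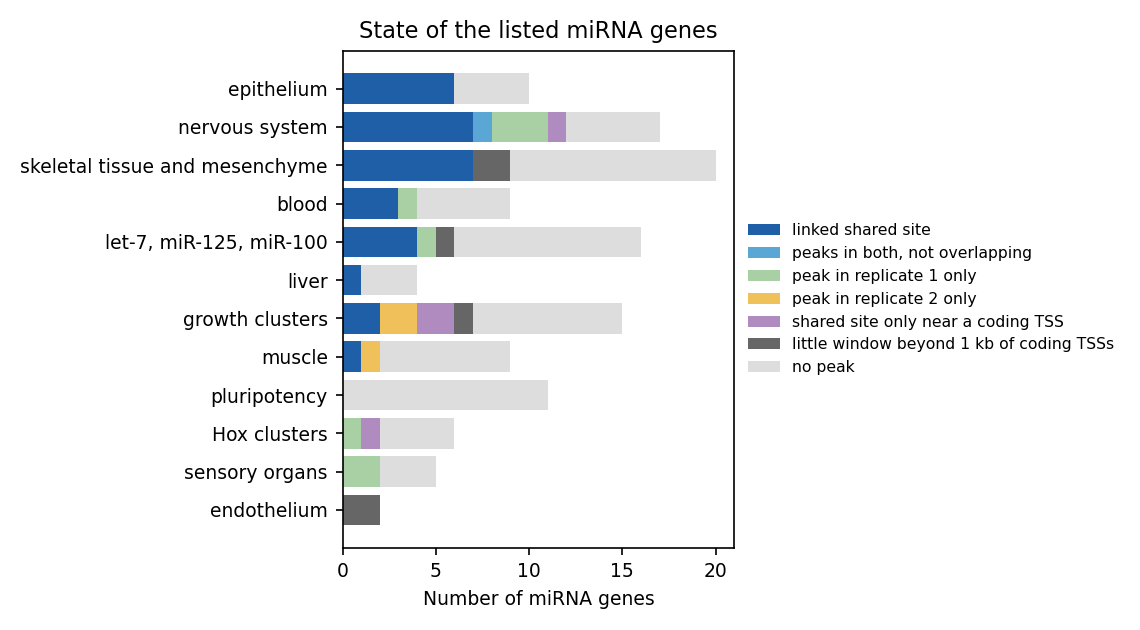
Number of miRNA genes in each of 12 lists (x axis) by what their window held: a linked shared site, peaks of 1 replicate only, peaks of both that did not overlap, a shared site only near a coding TSS, a window with less than 150 bp beyond 1 kb of coding TSSs, or no peak. Unshared peaks within 1 kb of a coding TSS were not counted. Epithelium has a linked site at 6 of 10 genes, and pluripotency at 0 of 11.

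The epithelial list stood highest, with a linked site at 6 of 10 genes. Mir203, which drives exit from the stem cell state in skin, had a site 159 bp upstream of 87 and 73 and a second of 78 and 71. Mir205, of basal keratinocytes, had a site of 90 and 46 within its non-coding host, about 0.9 kb upstream. Both of their peaks hold the letters ATAAAAGG, found in 4 of the 353 linked sites (1.13%, interval 0.310 to 2.88) and in 0.581% of the other distal sites. The others were at Gm27486 and Mir6540. The string was chosen after printed sequences had been seen, and both peaks are among those printed, so these shares only describe.

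Mir200c and Mir141 keep cells epithelial by repressing ZEB1 and ZEB2, and ZEB proteins in turn bind CACCTG boxes at this locus. They shared a site of 101 and 70 at the start of Gm15884, whose printed peak has 3 such boxes. One or more CACCTG was found in 41 linked sites (11.6%) and in 10.4% of the other distal sites, so its presence was at the background. Mir184, known from cornea, had a site of 55 and 44, and Mir375, known from endocrine cells and also made in squamous epithelium, one of 73 and 53 upstream and one of 52 and 31 downstream. The second miR-200 cluster, Mir200a, Mir200b and Mir429, had no peak in either replicate, nor had Mir31.

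In the list of skeletal tissue and mesenchyme 7 of 20 genes had a linked site. The Mir199a genes, Mir214 and Mir22 are described above. Mir145a, of smooth muscle, had one of 105 and 91 downstream of the hairpin, while its neighbour Mir143 had no peak. Mir34b and Mir34c, targets of p53, shared sites of 75 and 59 and of 47 and 41, but another shared site beside Mir34c, of 37 and 35, lay 998 bp from a coding TSS and was not counted. Mir140, the cartilage miRNA, could not be assessed, because its whole window lies within 1 kb of a coding TSS in Wwp2. Mir23b, Mir27b and Mir21a were among the 11 with no peak. Only 461 bp of the windows of Mir23b and Mir27b lay beyond 1 kb of coding TSSs, against 2092 bp for Mir21a.

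Among nervous system miRNAs 7 of 17 had a linked site. Mir9-3, which promotes the shift from progenitor to neuron, had one of 92 and 89 upstream. Mir124a-3, the brain-wide neuronal miRNA, had 4, of which the downstream pair scored 88 and 78, and 81 and 75, and the upstream pair 36 and 31, and 33 and 30. Mir128-2 in Arpp21 had sites of 82 and 48 over the hairpin and 66 and 60 upstream. Mir137 had 52 and 35 over its hairpin and 55 and 38 downstream, between it and Gm24155, and Mir153 in Ptprn2 had 55 and 43 upstream and 76 and 39 downstream. The replicate 2 peak of the downstream Mir153 site by itself lay beyond 1 kb, so that site counts only as merged.

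The paralogues of these neuronal genes differed. Mir9-1 and Mir124a-2 had no peak, Mir124a-1 had a peak in replicate 1 alone (score 60), and Mir9-2 had peaks of 75 in replicate 1 and 46 in replicate 2 that did not overlap each other. So of the 3 copies of each, 1 had a linked site. The mature miR-9 and miR-124 are the same from every copy, so the sites describe the genes and not the amount of miRNA.

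The list for muscle had a linked site at 1 of 9 genes, Mir206, the miRNA of developing skeletal muscle. Its site scored 97 and 61, lay 819 bp upstream near the start of Gm28653, and held an E-box, a ZEB-type E-box and a TEAD core. The E-box is the motif of myogenic regulators such as MyoD. It was found in 18.4% of linked sites and 19.5% of the other distal sites, so its presence was no more frequent than elsewhere. The heart and slow muscle miRNAs Mir208a, Mir208b and Mir499 had no peak, and neither had Mir1a-1 and both Mir133a genes. Mir1a-2 had a peak of 22 in replicate 2 alone. Mir1b, which is not in the list and is annotated over the same hairpin on the other strand with longer ends, had a linked site of 56 and 36 at 980 bp, just beyond 1 kb of Mir1a-2.

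Blood miRNAs had a linked site at 3 of 9 genes. Mir150, of mature lymphocytes, had one of 52 and 28, and Mir181a-1 and Mir181b-1 shared one of 52 and 49. The erythroid pair Mir144 and Mir451a, Mir142 and Mir155 had none. In the liver list Mir122, the main hepatocyte miRNA, had a site of 53 and 28, at 975 bp from the hairpin, and the other 3 genes had no peak. The replicate 2 peak by itself lay beyond 1 kb, so the site counts only as merged.

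Within the let-7, miR-125 and miR-100 families 4 of 16 genes had a linked site. Mirlet7i was the strongest and Mir125b-1 followed, with 4 sites of 119 and 107, 111 and 93, 95 and 61, and 49 and 47. Mirlet7e and Mir99b, in introns of Spaca6, shared one of 69 and 46. Mirlet7a-1, Mirlet7a-2 and Mirlet7b were among the 10 with no peak.

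In the growth-cluster list 2 of 15 had a linked site, Mir17 and Mir18. The 2 endothelial miRNAs, Mir126a and Mir126b, lay wholly within 1 kb of coding TSSs. In 3 further lists no gene had a linked site. None of the 6 Hox-cluster miRNAs had one, although Mir196a-1 had a peak of 39 in replicate 1 alone. At Mir615 the only shared site in the window lay within 1 kb of a coding TSS and was not counted. That limit left 198 bp of the Mir196b window and 658 bp of the Mir10b window, so this list was only partly assessed. Of the 5 sensory-organ miRNAs, Mir183 and Mir96 each had a replicate 1 peak of 71, and the 11 pluripotency miRNAs had no peak.

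**Figure D5:**
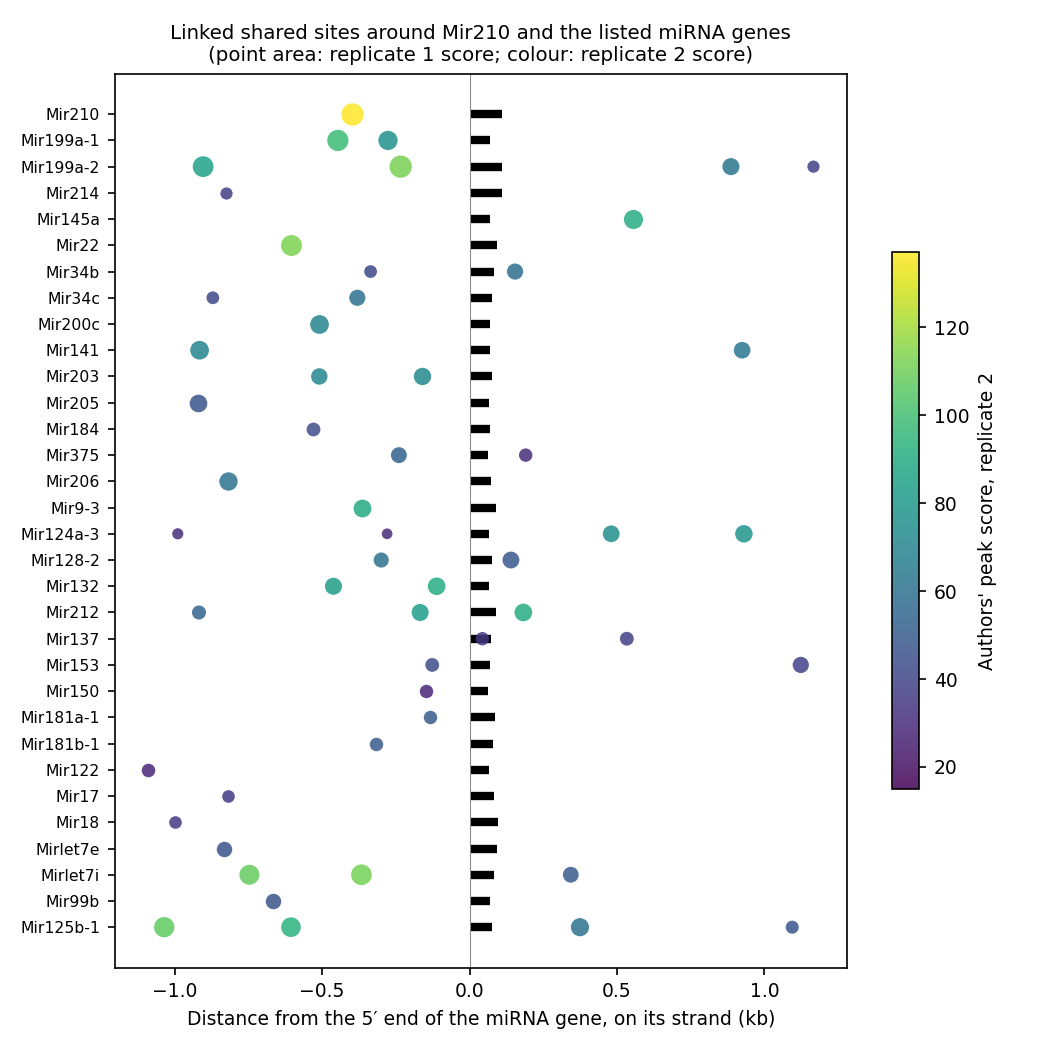
Linked sites around Mir210 and the 31 listed miRNA genes with one (rows), by distance of the site centre from the 5′ end of the miRNA gene on its strand (x axis, kb). Black bars are the hairpins, the area of each point shows the replicate 1 score and its colour the replicate 2 score. Mirlet7i, Mir125b-1 and Mir199a-2 have both a strong upstream site and weaker sites downstream.

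Genes with 4 linked sites were Mir199a-2, Mir125b-1, Mir124a-3, Mir5103, Mir3966 and n-TStga1, a tRNA-named gene typed as miRNA in the annotation. Mir5103, at the start of Gm37233, had scores from 49 to 102 in replicate 1 and from 38 to 69 in replicate 2. Mir3966, outside genes, had sites of 65 and 48, 93 and 58, 73 and 45, and 40 and 37. Around n-TStga1, on chromosome 13, the 4 sites scored 70 and 69, 86 and 85, 88 and 78, and 93 and 93.

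The replicates ranked some sites differently. The median difference in percentile, replicate 2 minus replicate 1, was −5.21 for linked sites and −9.21 for the other distal sites. The farthest below were a site beside Mir6540 in Gap43, a growth-cone gene, with 55 and 17 (percentiles 57.8 and 3.98), and sites at Gm25986 in Arl13b, Gm44384, Mir6917 in Erbb3 and Gm22860, with differences from −50.9 to −39.9. The farthest above were a site at Mir759 with 44 and 47 (percentiles 37.9 and 66.5) and sites at Gm23801 in Lmbr1, Gm24159 in Gnao1, Mir669n in Slc30a7 and Mir8104 in Ppm1h, with differences from 23.7 to 21.2. Each locus has 1 value per replicate, so these differences were not tested.

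The sequence of linked sites was richer in GC and CpG than that of other distal sites, over the central 150 bp of each site. Median GC content was 52.0% against 48.7% in 137835 other distal sites, and the median observed-to-expected CpG ratio 0.327 against 0.238. A GC box GGGCGG was present in 53 linked sites (15.01%, interval 11.5 to 19.2) and 6.04% of the others. CCGGAA, the ETS core, was present in 15 (4.25%, interval 2.40 to 6.91) and 2.75%, and its interval includes the share of the others. Both strings hold a CpG, and the part of base composition in these counts was not tested.

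The remaining motifs, searched on both strands, were near the level of the other distal sites. AP-1 TGANTCA was in 6.80% and 6.63%, TEAD GGAATG in 12.7% and 12.7%, RUNX TGTGGT in 12.5% and 13.5%, and homeobox TAATTA in 3.97% and 4.24%. The CTCF core AGGGGGC was in 5.10% and 4.61%, and the NFI palindrome in 0.283% (1 site, at Mir5126) and 0.262%.

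The distance limits passed close to some sites of the same strength. The last sites inside 1 kb of a hairpin were at Mir1900, Gm44355 and Gm22547, at 987, 996 and 998 bp, and the first outside were at Mir675, Mir7000 and Gm23268, at 1008, 1009 and 1009 bp. The excluded site at Mir675, the miRNA of the imprinted H19 RNA, scored 126 and 104. Nearest to the limit from coding TSSs were the sites kept at Mir8104, Gm27486 and Mir1224, at 1014, 1017 and 1029 bp, and those left out at Mir760, Mir34c and Gm44357, at 991, 998 and 999 bp. The excluded site at Mir760 scored 107 and 109.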

How the data were processed

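DNase-seq of 2 biological replicates was used, and the replicates stand for 2 biosamples whose spread also includes library depth. Per the descriptions deposited with the lists, the authors derived peaks and hotspots for each replicate by itself from its filtered mm10 alignments. The deposited peak score is a whole number with no stated normalization. The deposited hotspot value is, per the broad peak format, the −log10 of a q-value. Read depth, aligner, caller and thresholds are not stated in the labels or headers.

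Peaks on chromosomes 1 to 19 were matched between replicates by an overlap of 1 bp or more. The score of a site was its highest peak's in each replicate. Coding TSSs were those of every transcript of a protein-coding gene in the comprehensive GENCODE M21 annotation, and placements and hosts came from it. Coordinates are 1-based. Windows placed every 10 kb, with a core of 90 bp, gave the background. The counting functions were tested on simulated data and recovered 100 of 100 planted genes, with 0 of 100 genes outside the limit. Intervals are exact Clopper-Pearson 95% intervals and no test was made between groups, since there was 1 group. Genes and sites are not replicates. Python 3.11.15, numpy 2.4.6, pandas 2.3.3, scipy 1.17.1 and matplotlib 3.10.9 were used.

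The rule for members, the miRNA lists and the tests were chosen with earlier results of these data known. Named were the 15 sites of highest mean percentile, up to 6 list members with a linked site and 3 without, the 5 clusters and the genes with most sites, the 5 sites of largest rank difference in each direction, hosts, and the 3 sites on either side of each limit. The 5 genes with most sites were 6, as 6 had 4 each. Any other feature named was picked with its values in view. The alternatives covered both distances, the overlap, the scores, hotspots, list length, the TSS set, the cluster gap and each replicate alone.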

Additional observations from a re-analysis of the deposited data

How the results depend on the processing

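With a miRNA distance of 500 bp, 209 sites were linked at 178 genes, 135 of them with Mir symbols, 55 in host introns, and 15 clusters had a site. At 2 kb the values were 639 sites, 479 genes and 140 host-intron genes. Keeping peaks at or above each list's median score left 223 sites, and a cluster gap of 50 kb gave 46 clusters with a site. Using the peaks of 1 replicate alone gave 410 to 552 sites and 324 to 421 genes. These shifts follow from the windows and lists, which became wider, narrower, longer or shorter. Under the other alternatives every count was within 1.5 times the main one. They included 2 added after the data were seen, the basic annotation's TSSs (396 sites) and both replicates' own peaks within the limits (347 sites, 291 genes). No paired analysis was possible because there was 1 group. Depth is unknown, so a missing peak is not a closed site.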
